A study of Mus musculus with 8 samples.

Results

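A list of 9 genes used to recognise fat cells was followed in whole B16F1 tumours: Car3, Adipoq, Fabp4, Plin1, Cfd, Retn, Lpl, Pparg and Cd36. A gene was taken up where the array annotation gave at least 1 probe set naming it alone, and it was represented by its brightest such probe set. This found 7 of the 9 listed genes, with 16 probe sets, among the 18193 genes that the array represented in this way. No probe set named Plin1, which coats the lipid droplet, or Cfd, the complement protease adipsin, and neither was analysed here. B16F1 is a mouse melanoma cell line, which was injected under the skin of the right hind limb of mice aged 8 to 12 weeks and grown to 268 to 478 cubic mm. The 4 groups were tumours from TNFR 1, 2 -/- hosts that were irradiated (20 Gy of X-rays to the limb, excised 5 h later) or untreated, and tumours from wild-type (WT) C57BL/6-NCr hosts that were irradiated or untreated. The knockout hosts (TNFR KO) lack both receptors for TNF through the germline alleles Tnfrsf1a[tm1Imx] and Tnfrsf1b[tm1Imx], and their stock carries 129S as well as C57BL/6 background, whereas their arrays list C57BL/6 as the host strain. In every group the melanoma cells themselves carried their own receptor genes. RNA of the tumours of a group, from 5 to 7 mice injected per host, was combined into 1 pool and read on 2 arrays, so the duplicates are technical and measure no spread between animals.

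White adipocytes store triglyceride in a large lipid droplet. Pparg encodes PPARγ, the nuclear receptor that drives fat cell differentiation and switches on the genes for fatty acid uptake and storage. Lpl frees fatty acids from circulating lipoproteins, Cd36 takes them across the membrane and Fabp4 carries them inside the cell, while Adipoq and Retn encode the secreted hormones adiponectin and resistin. Some of these genes are not private to fat: Fabp4 and Cd36 are also made by capillary endothelium and macrophages, Lpl by muscle and macrophages, and Car3, a carbonic anhydrase, by slow skeletal muscle.

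Adipoq read at the level of an empty probe set on every array, Pparg on 7 of 8 and Retn on 5 of 8, whereas Fabp4 was bright. Probe sets for bacterial transcripts gave a measure of the empty level, because 24 of them that read 1096 or more on the WT arrays read only 0.9 to 55.8 on the 4 TNFR KO arrays (median 10.35). Adipoq read 34.1 and 21.7 in TNFR KO irradiated, 18 and 39.9 in TNFR KO untreated, 27.2 and 34.0 in WT irradiated and 15.2 and 32.2 in WT untreated tumours. All 8 values lay within that empty range, and the pools overlapped. Pparg read 58.9 and 13.0 in TNFR KO irradiated, 14 and 5.8 in TNFR KO untreated, 32.7 and 9.2 in WT irradiated and 8.9 and 6.6 in WT untreated tumours. Its value exceeded the empty range on 1 array, whose duplicate did not. Retn read 56.5 and 83.7 in TNFR KO irradiated, 5.5 and 50.8 in TNFR KO untreated, 73.0 and 6.1 in WT irradiated and 4.8 and 14.1 in WT untreated tumours. Both TNFR KO irradiated arrays and 1 WT irradiated array lay above the empty range, and the duplicates of the untreated TNFR KO and irradiated WT pools lay far apart. These 3 genes did not reach the average signal required for testing (68.8, the median of all probe sets), so they were left out of the tests below, and with all genes tested limma called 0 of the 3 in any comparison.

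**Figure D1:**
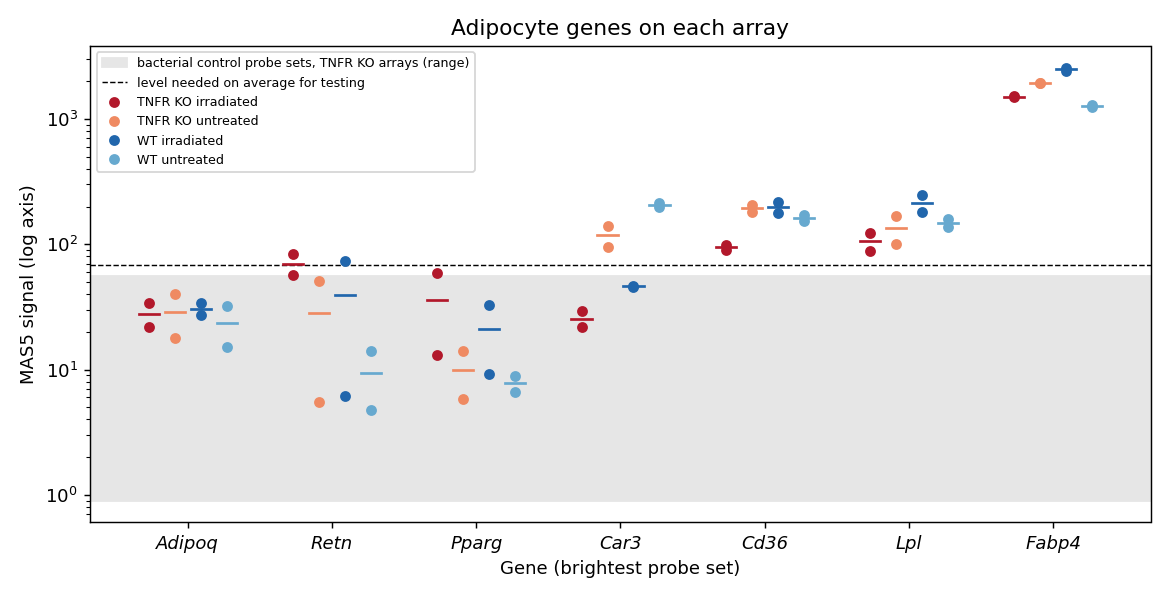
MAS5 signal (log axis) of the brightest probe set of each of the 7 genes on each array; points are arrays, short bars the mean of the 2 arrays of a pool, the grey band the range of bacterial control probe sets on the TNFR KO arrays (0.9 to 55.8) and the dashed line the average level needed for testing (68.8). Adipoq lies wholly inside the band, Retn and Pparg mostly so, and Fabp4 lies far above it on every array.

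The other genes of a mature fat cell were mixed. Of 13 further adipocyte genes 12 had a probe set of their own, and 8 of these 12 were too dim to test, none of them at exactly 0. Cidec, a lipid droplet protein, read 1.9 to 25.3 (median 6.55) and Lep, the hormone leptin, 3.1 to 21.9 (median 15.25), both within the empty range on all 8 arrays. Plin4, another droplet coat protein, lay in it on 6 of 8 arrays, with values of 12.7 to 71.7. Aqp7 and Pck1 lay in it on all 8 arrays, Trarg1 on 7, and the hormone-sensitive lipase gene Lipe and Acvr1c on 3 each. The remaining 4, which other cells also use, lay above it on all 8 arrays: Gpd1 at 1340 to 2045, Slc2a4 at 162 to 483, Cebpa at 94.2 to 293 and Thrsp at 121 to 192. Brown fat genes were mixed as well. Ucp1, the uncoupling protein, at 3.2 to 18, Cidea at 2.8 to 9.7 and Cox8b at 2.8 to 20.4 lay in the empty range throughout, and Elovl3 and Dio2 on 1 and 2 arrays, while Prdm16 read 952 to 1815 and Cox7a1 129 to 209. Of the markers most restricted to fat cells Adipoq, Cidec and Lep thus lay at the empty level on every array, whereas Plin4 and Retn exceeded it on 2 and 3 arrays, and the brighter genes below are described by name rather than as a fat cell signal. By contrast the 7 melanocyte markers summed to 150360 to 158964 in TNFR KO irradiated, 148884 to 157856 in TNFR KO untreated, 160416 to 180806 in WT irradiated and 144990 to 155301 in WT untreated tumours.

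The promoters of Cd36, the testable gene with a listed promoter, and of Adipoq, which stayed at the empty level, are shown for reference to PPARγ, which binds direct repeats of AGGTCA with its partner RXR. Both are RefSeq windows of 300 bases on GRCm38.p6, from 250 bases before to 50 after the gene start, Cd36 at chr5:17835847-17836146 on the minus strand and Adipoq at chr16:23146286-23146585 on the plus strand. Capitals mark AGGTCA, or TGACCT where it lies on the opposite strand.
Cd36: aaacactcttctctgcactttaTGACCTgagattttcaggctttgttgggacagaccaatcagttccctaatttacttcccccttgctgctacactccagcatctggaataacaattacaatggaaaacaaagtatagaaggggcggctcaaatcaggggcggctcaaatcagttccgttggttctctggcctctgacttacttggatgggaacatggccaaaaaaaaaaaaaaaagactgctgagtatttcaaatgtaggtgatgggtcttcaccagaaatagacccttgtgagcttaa
Adipoq: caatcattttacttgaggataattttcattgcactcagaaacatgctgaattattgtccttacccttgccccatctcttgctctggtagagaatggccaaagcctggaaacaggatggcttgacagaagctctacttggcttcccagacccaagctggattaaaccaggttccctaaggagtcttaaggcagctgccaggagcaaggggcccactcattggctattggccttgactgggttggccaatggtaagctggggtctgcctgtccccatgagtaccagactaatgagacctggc
The Cd36 window held AGGTCA once, on the opposite strand at position -228 from the gene start, and the Adipoq window did not hold it. It occurred on either strand in 16.3% of 32851 promoters of this length. The full repeat AGGTCANAGGTCA, which contains that hexamer, was in neither window and in 0.0396% of all promoters. The C/EBP core TTGCNNAA was also in neither, against 10.8% of all promoters. The table held windows for 6 of the 9 listed genes, and such matches describe the letters only.

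Fabp4 was the brightest of the 7 genes, above 90.6% of all probe sets. It read 1513 and 1505 in TNFR KO irradiated, 1930.5 and 1937 in TNFR KO untreated, 2417 and 2571 in WT irradiated and 1297 and 1246 in WT untreated tumours. The duplicates lay close together and no pools overlapped, the order from high to low being WT irradiated, TNFR KO untreated, TNFR KO irradiated and WT untreated. Irradiation thus went with a lower Fabp4 signal in TNFR KO hosts and a higher one in WT hosts. Fitted with limma across 11345 genes on the scale log2(signal + 16), the radiation difference was -0.35 ± 0.059 in TNFR KO hosts (adjusted p = 0.0113) and 0.96 ± 0.059 in WT hosts (adjusted p = 0.000657), where ± is the standard error. Neither reached the 2-fold size that was also required for a call. The difference between these radiation differences did, at -1.32 ± 0.084 (adjusted p = 0.002), and missed the threshold with the mean of its probe sets (-0.88, adjusted p = 0.0678). These p-values rest on the spread between duplicate arrays of 1 pool per group and cover no spread between animals.

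A second bright Fabp4 probe set read 1026 and 1012 in TNFR KO irradiated, 887 and 1053 in TNFR KO untreated, 919 and 1180 in WT irradiated and 589 and 503 in WT untreated tumours. It too was lowest in untreated WT tumours, but its radiation difference in TNFR KO hosts was 0.076, with overlapping duplicates, against 0.92 in WT hosts. The opposite direction of the brightest probe set in TNFR KO hosts was thus not seen on this one, while the radiation difference remained smaller in TNFR KO than in WT hosts (-0.84 for TNFR KO minus WT). The remaining Fabp4 probe sets read 43.7 or less on every array.

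Cd36, the fatty acid translocase, read 98.7 and 90.3 in TNFR KO irradiated, 181 and 207 in TNFR KO untreated, 178 and 218 in WT irradiated and 172 and 154 in WT untreated tumours. The irradiated TNFR KO pool stood below the other pools, which lay close to each other or overlapped. Its radiation difference was -0.93 ± 0.12 in TNFR KO hosts (adjusted p = 0.0057, short of 2-fold) and 0.25 ± 0.12 in WT hosts (adjusted p = 0.165). The difference between them was called, at -1.18 ± 0.17 (adjusted p = 0.0169), again against duplicate arrays only. It missed the threshold when TNFR KO irradiated replicate 2, TNFR KO untreated replicate 2 or WT untreated replicate 2 was left out (limma adjusted p of 0.059, 0.0595 and 0.0577), with all genes tested (0.0636), and with the mean of its probe sets (0.0608). It also stayed short of 2-fold with arrays centred on the median (-0.95) or a pseudocount of 64 (-0.91). The second Cd36 probe set read 101 and 81.4 in TNFR KO irradiated, 142 and 138 in TNFR KO untreated, 157 and 182 in WT irradiated and 50.6 and 79.9 in WT untreated tumours. It moved with the first in TNFR KO hosts (-0.54) and showed a larger difference in WT hosts (1.21), with no overlap within either host. The third, at 8.4 to 43.8, stayed within the empty range.

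Lpl, lipoprotein lipase, read 87.8 and 123 in TNFR KO irradiated, 169 and 101 in TNFR KO untreated, 246 and 181 in WT irradiated and 136 and 159 in WT untreated tumours. Duplicates were far apart, and only the irradiated pools were separated from each other without overlap among the comparisons between hosts. Irradiated tumours of TNFR KO hosts read lower than irradiated WT tumours by a log2 difference of -0.92 ± 0.27 (adjusted p = 0.0281), which did not reach 2-fold. The radiation difference was -0.29 ± 0.27 in TNFR KO hosts (adjusted p = 0.458) and 0.48 ± 0.27 in WT hosts (adjusted p = 0.233). Its other probe set, at 41.0 to 98.1, differed by -0.13 between the irradiated pools, so that the lower value in TNFR KO hosts rests on a single probe set. Gpihbp1, the capillary protein that anchors the lipase, read 1542 ± 90.9 in TNFR KO irradiated, 1450 ± 11.8 in TNFR KO untreated, 1453 ± 86.5 in WT irradiated and 1023 ± 45.7 in WT untreated tumours (SD, n = 2 arrays), with no call for radiation over both hosts (0.29 ± 0.17, adjusted p = 0.434).

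**Figure D2:**
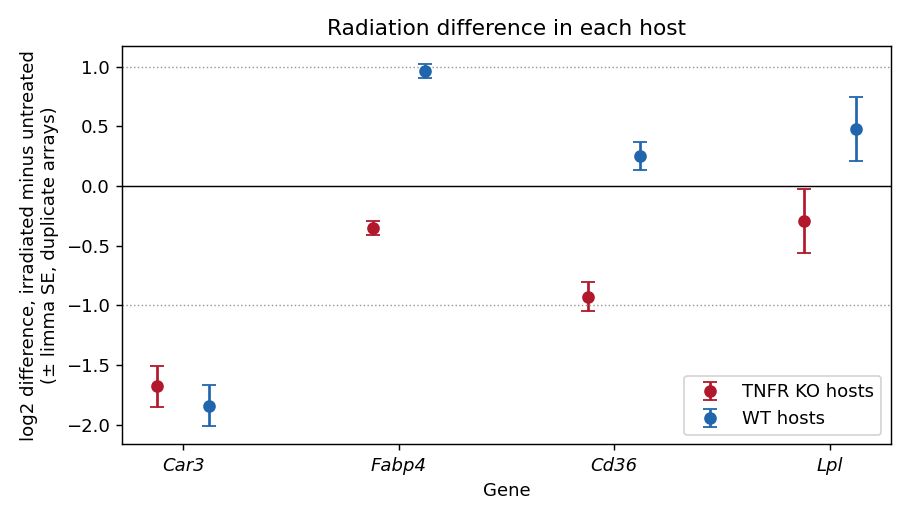
Log2 difference, irradiated minus untreated, of the 4 tested genes in TNFR KO and WT hosts; bars are the limma standard error from duplicate arrays and dotted lines mark 2-fold. Car3 is low in both hosts (-1.68 and -1.84), whereas Fabp4, Cd36 and Lpl lie below 0 in TNFR KO hosts and above 0 in WT hosts.

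Car3 was the only tested member that fell after irradiation in both hosts. It read 29.4 and 21.7 in TNFR KO irradiated, 95.7 and 141 in TNFR KO untreated, 46.5 and 45.8 in WT irradiated and 214 and 199.8 in WT untreated tumours. All irradiated arrays lay below all untreated ones, and within each treatment the TNFR KO arrays lay below the WT arrays. Averaged over hosts in a fit to the 4 pool means, the difference was -1.76 ± 0.16 (adjusted p = 0.000426), or -2.18 with no pseudocount and -1.16 with 64. Fitted against duplicate arrays it was -1.68 ± 0.17 in TNFR KO hosts (adjusted p = 0.00346) and -1.84 ± 0.17 in WT hosts (adjusted p = 0.00211), and the difference between the hosts' values was 0.16 ± 0.24 (adjusted p = 0.699). Over both treatments Car3 was lower in TNFR KO than in WT hosts by -0.67 ± 0.16 (adjusted p = 0.0114).

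Both Car3 results have limits. The irradiated values lie within the empty range, so the size of the fall is bounded by the array's background. Over both hosts the call was lost with all genes tested (adjusted p = 0.262), without WT irradiated replicate 1 (0.0576) or WT untreated replicate 1 (0.0731), and with the mean of its probe sets Car3 was too dim to test. The host difference was lost with all genes tested (adjusted p = 0.117), with the limma-trend fit (0.0672) and without TNFR KO untreated replicate 1 (0.0506). The dimmer Car3 probe sets did not repeat the fall as a whole. The next brightest, at 26 to 101, differed by 0.22 in TNFR KO hosts and -0.84 in WT hosts. The following one, at 5.1 to 70.5, differed by 0.79 and 1.42, and the dimmest, at 0.9 to 15.9, by -0.13 and 0.48.

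**Figure D3:**
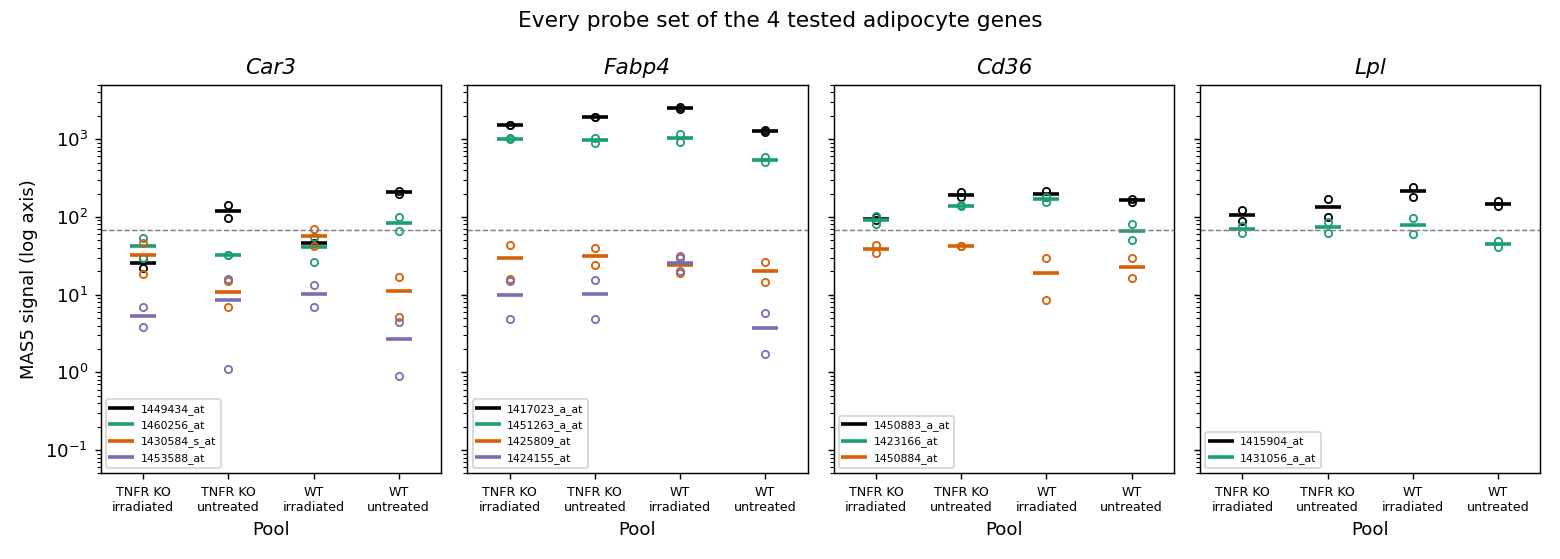
MAS5 signal (log axis) of every probe set of Car3, Fabp4, Cd36 and Lpl in the 4 pools; open circles are arrays, bars the mean of 2 arrays and the dashed line the level needed for testing. The brighter pair of Fabp4 probe sets is lowest in the untreated WT pool, and the brightest Car3 probe set is lower in both irradiated pools than in the untreated ones while its dimmer probe sets are not.

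Counted over the 4 tested members, 1 was lower and 0 higher after irradiation over both hosts, where 0.353% of the 11345 tested genes were lower, 1.55% higher and 1.9% either. By limma 0 passed as higher, with 1889 of all tested genes at an unadjusted p under 0.05. Over both treatments 1 was lower in TNFR KO than in WT hosts, against 18.9% of all tested genes lower, 12% higher and 30.9% either, a share beside which 1 of 4 is no result about the set. Within hosts Car3 alone was called lower, against 0.485% of tested genes lower, 0.881% higher and 1.37% either in TNFR KO hosts, and 0.203% lower, 2.25% higher and 2.45% either in WT hosts. None was called at 2-fold between hosts in irradiated tumours (0.793% of tested genes were higher, 7.43% lower and 8.22% either) or in untreated tumours (2.06% higher, 6.25% lower and 8.31% either), where 6954 and 6445 of all tested genes had an unadjusted p under 0.05. Even so, all 4 in irradiated tumours, and Fabp4 (higher) and Car3 (lower) in untreated tumours, had an adjusted p under 0.05 in limma. By that measure alone 3223 of the 11345 tested genes were higher and 3093 lower in irradiated tumours. In untreated tumours 2998 were higher and 2698 lower. Beside such shares these member counts are no result about the set. For the difference between radiation effects 2 of 4 were called below 0, against 2.05% of tested genes below, 0.159% above and 2.21% either. The median over the 4 genes was -0.64 for radiation in TNFR KO hosts and 0.37 in WT hosts, beside -0.020 and -0.020 over all tested genes. Only 4 of the 9 listed genes enter these counts, and Car3 entered through its untreated pools, its irradiated ones being below the level for testing.

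Markers of other cell types that express these genes followed them only in part. The 14 macrophage genes summed to 10679 to 11052 in TNFR KO irradiated, 15894 to 16466 in TNFR KO untreated, 14634 to 14928 in WT irradiated and 7680 to 7753 in WT untreated tumours. Their sum was lowest in untreated WT tumours as for Fabp4, but highest in untreated TNFR KO tumours, where Fabp4 was highest in irradiated WT tumours. The brightest Cd36 probe set was lowest in irradiated TNFR KO tumours instead. The second Cd36 probe set was lowest in untreated WT tumours, at 50.6 and 79.9 against 101 and 81.4 in irradiated TNFR KO tumours. Of 13 tested macrophage genes 10 were called below 0 for the difference between radiation effects and 0 above, beside 2.05% below and 0.159% above over all tested genes. The median over the 13 was -1.34 beside -0.0091 over all tested genes (0.22 over all tested genes where arrays were centred on their median). The called genes included Csf1r, the receptor of macrophage growth factor (-1.67 ± 0.076), and the complement gene C1qb (-1.49 ± 0.11). None was at exactly 0 and 1, Cd163, was too dim to test. The 13 endothelial genes summed to 13511 to 13746 in TNFR KO irradiated, 12093 to 12780 in TNFR KO untreated, 9860 to 11219 in WT irradiated and 8091 to 8998 in WT untreated tumours. The endothelial sum was thus higher after irradiation in both hosts, whereas the brightest Fabp4 and Cd36 probe sets were lower in TNFR KO hosts. Eng, an endothelial TGF-beta coreceptor, made up the largest part of this sum, at 6890 in TNFR KO irradiated, 5331 in TNFR KO untreated, 5113 in WT irradiated and 3960 in WT untreated tumours on average. Gene by gene the endothelial list did not follow its sum in TNFR KO hosts. For radiation there, 9 of the 12 tested genes lay below 0 and 3 above (median -0.27). In WT hosts 9 lay above 0 and 3 below (median 0.28), and in either host 0 were called by limma at 2-fold. Of 12 tested endothelial genes 1, the junction gene Cldn5, was called below 0 for the difference between radiation effects (-1.35 ± 0.15), beside 2.05% of all tested genes. Of the 12, 9 lay below 0, and the median was -0.32. Cldn5 averaged 228 in TNFR KO irradiated, 298.5 in TNFR KO untreated, 336 in WT irradiated and 163 in WT untreated tumours, lowest in untreated WT tumours as for Fabp4. What macrophages or vessels contribute to Fabp4 and Cd36 was not tested, and in bulk tumours fewer cells of a type cannot be told apart from less RNA per cell.

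Skeletal muscle genes moved beside Car3. The 16 genes summed to 1081 to 1169 in TNFR KO irradiated, 2120 to 2188 in TNFR KO untreated, 1772 to 1773 in WT irradiated and 4498 to 4600 in WT untreated tumours. Of 10 tested, 6 were lower and 0 higher after irradiation over both hosts, with a median of -1.10 beside -0.018 over all tested genes, of which 0.353% were lower. Between hosts 8 were lower in TNFR KO than in WT, beside 18.9% of all tested genes. With quantile normalization Car3 was the only 1 of 11351 genes called lower over both hosts, so these 6 calls, and that of Klf15 below, were lost. With all 18193 genes tested limma called 0 over both hosts in either direction, with 1998 at an unadjusted p under 0.05, and likewise 0 between hosts over both treatments, with 4487. Each call over both hosts or over both treatments given here, for any list, thus rests on the filter on dim genes. Without WT irradiated replicate 1 or WT untreated replicate 1 the count of 6 was 0, and it was 1 without WT untreated replicate 2 and likewise 1 with TNFR KO irradiated replicate 2 left out. The skeletal actin gene Acta1 fell by 1.54 on the log2 scale. The fast myosin gene Myh1 read 31.2 and 25.4 in TNFR KO irradiated and 255 and 222 in TNFR KO untreated tumours, so that its fitted difference of -2.22 is bounded by background. It is 1 of 3 of the 6 genes, with Tnni2 and Myl1, that lay in the empty range on both TNFR KO irradiated arrays. In irradiated TNFR KO tumours Tnni2 (20.35), Myh1 (28.3), Myl1 (30.0), Actn3 (51.7) and Tnnc2 (60.35) averaged below the level for testing. These genes entered through their other pools and were brightest in untreated WT tumours. Their lower values after irradiation were thus partly set by how they entered the tests. The slow-fibre myosin gene Myh7, from the fibre type known for Car3, was too dim to test, at 16.4 to 89.3. None of the 16 was at exactly 0 on any array, 6 were too dim to test, and the part of muscle in the Car3 result was not tested.

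**Figure D4:**
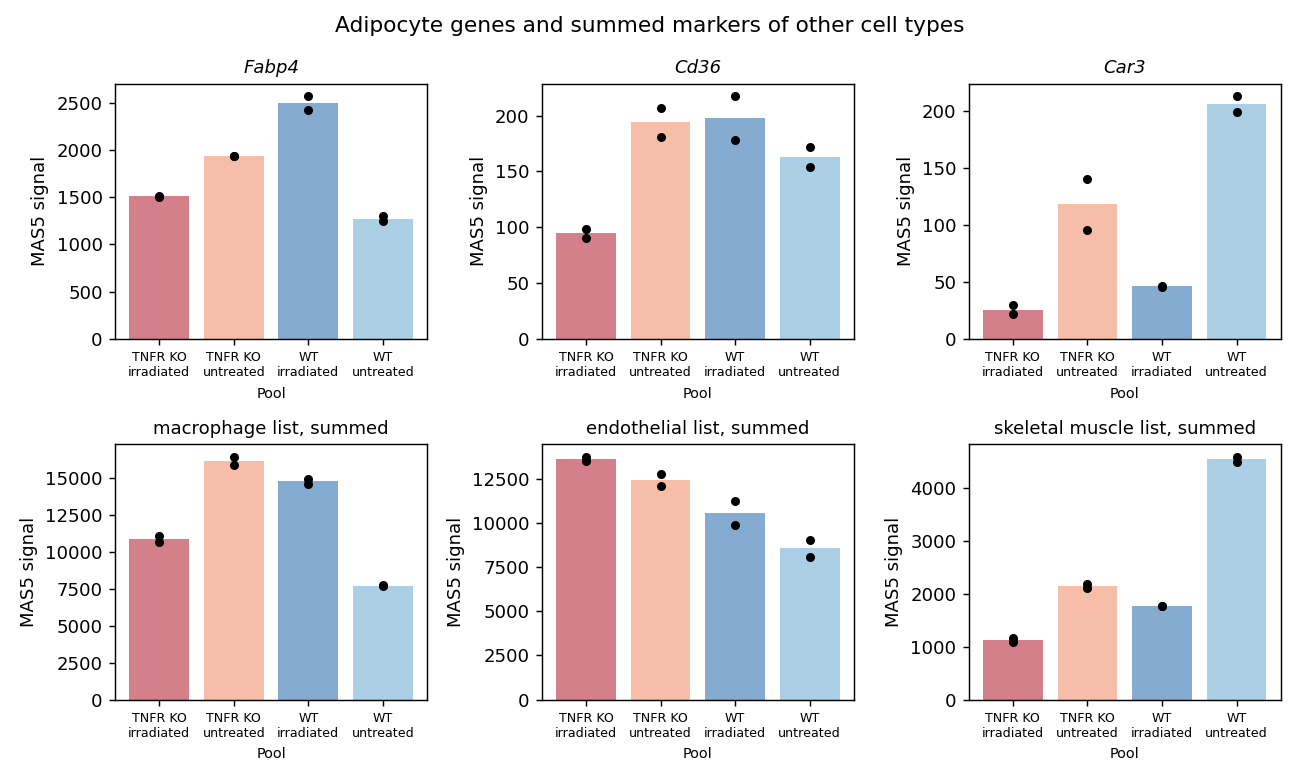
MAS5 signal of Fabp4, Cd36 and Car3 (upper row) and summed signal of the macrophage, endothelial and skeletal muscle lists (lower row) in the 4 pools; bars are means of 2 arrays and points the arrays. Fabp4 and the macrophage sum are both lowest in untreated WT tumours, and Car3 and the muscle sum are both highest there.

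Pathways around the members were measured in lists of their own. Among 14 genes of lipid release and uptake 1 was called higher and 0 lower after irradiation over both hosts: Angptl4, a PPAR-induced inhibitor of lipoprotein lipase (1.15 ± 0.23, adjusted p = 0.0366), beside 1.55% of all tested genes. That call, and those of Klf15 and Klf2 over both hosts below, were lost whichever 1 of the 8 arrays was left out. Angptl4 read 672 ± 50.3 in TNFR KO irradiated, 436 ± 18.2 in TNFR KO untreated, 693 ± 29.3 in WT irradiated and 203 ± 1.13 in WT untreated tumours (SD, n = 2 arrays). Its irradiated pools read alike in both hosts, and its untreated pools did not. G0s2, an inhibitor of triglyceride breakdown, read 164 ± 23.5 in TNFR KO irradiated, 303 ± 5.94 in TNFR KO untreated, 966 ± 20.9 in WT irradiated and 285 ± 39.0 in WT untreated tumours (SD, n = 2 arrays). Its radiation difference was called in WT hosts (1.71 ± 0.12, adjusted p = 0.00101; 2.25% of tested genes were higher), was -0.83 ± 0.12 in TNFR KO hosts, and differed between hosts by -2.55 ± 0.17 (adjusted p = 0.00223). Of these 14 genes 2 were higher in TNFR KO than in WT hosts over both treatments, Lmf1, which matures the lipase, and the fatty acid transporter gene Slc27a1, against 12% of tested genes. In TNFR KO hosts 0 of the 14 were called for radiation by limma at 2-fold, although 4 had an adjusted p under 0.05: Angptl4 (0.61 ± 0.075), Abhd5 (0.57 ± 0.076), Lipa (-0.50 ± 0.052) and G0s2. Of all 11345 tested genes 1070 were higher and 1631 lower by that measure.

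Fatty acid and triglyceride synthesis, a pathway of tumour cells as well as fat, had 0 of 14 genes called for radiation over both hosts by limma (median -0.10) and 1 higher in TNFR KO than in WT hosts, the fatty acid synthase gene Fasn (0.56 ± 0.16, adjusted p = 0.0239), beside 12% of all tested genes. Of 12 tested adipogenic transcription factors 1 was called lower over both hosts, Klf15, which is also a glucocorticoid target (-1.21 ± 0.22, adjusted p = 0.0195), beside 0.353% of all tested genes. In WT hosts 3 rose and 1 fell, beside 2.25% of all tested genes higher and 0.203% lower. Klf4 (1.72 ± 0.16), Cebpb (1.5 ± 0.077) and the liver X receptor gene Nr1h3 (1.30 ± 0.30) rose and Klf15 fell (-1.70 ± 0.13), all against duplicate arrays. The Nr1h3 call was lost without either TNFR KO untreated array, either WT irradiated array or WT untreated replicate 1. In WT untreated tumours Nr1h3 read 17.3 and 45.7, within the empty range, so the size of its rise is bounded by background. In TNFR KO hosts 0 of 12 were called by limma at 2-fold, with 4 at an adjusted p under 0.05, where 1070 of the 11345 tested genes were higher and 1631 lower. The difference between hosts was called for Cebpb (-1.19 ± 0.11, adjusted p = 0.0053) and Klf4 (-1.38 ± 0.23, adjusted p = 0.0236), beside 2.05% of tested genes below 0. The Klf4 call was lost with all genes tested. With the filter in place it was lost in 6 of 8 omissions of 1 array, those that ended the Nr1h3 call and that of WT untreated replicate 2. Between hosts over both treatments 4 were higher and 1 lower, the lower being the coactivator gene Ppargc1a (-1.36 ± 0.17), beside 12% of all tested genes higher and 18.9% lower. Of 8 omissions of 1 array each, 8 ended the higher call of Nr1h3, 5 that of Rxra, 2 that of Stat5a and 0 that of Ppargc1b. The Ppargc1a call was lost in 0. Cebpa, the factor that maintains the mature fat cell and also acts in myeloid cells, read 248 ± 27.9 in TNFR KO irradiated, 280 ± 19.2 in TNFR KO untreated, 183 ± 10.9 in WT irradiated and 105 ± 15.0 in WT untreated tumours (SD, n = 2 arrays). It was higher in TNFR KO than in WT hosts (0.85 ± 0.21, adjusted p = 0.013). The insulin-responsive glucose transporter gene Slc2a4 was also higher (0.60 ± 0.17, adjusted p = 0.0202), which made 2 of the 4 testable further adipocyte genes, beside 12% of all tested genes. Neither was called without WT untreated replicate 1 or without WT untreated replicate 2. Of 8 omissions of 1 array each, 5 ended the call of Cebpa and 4 that of Slc2a4.

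Of 6 tested repressors of fat cell differentiation 1, Klf2, was called higher after irradiation over both hosts (0.84 ± 0.17, adjusted p = 0.0369), beside 1.55% of all tested genes. Of the 6, 2, Dlk1 and Gata2, were higher in TNFR KO than in WT hosts, beside 12% of all tested genes. Among 3 tested adipokine receptors Cdh13, which binds adiponectin on vessels, was higher in TNFR KO than in WT hosts (0.59 ± 0.18, adjusted p = 0.0324), beside the same 12%. Of these 3, 0 were called for radiation by limma. Of 8 omissions of 1 array each, 6 ended the call of Dlk1, 7 that of Gata2, 6 that of Cdh13, 7 that of Lmf1, 6 that of Slc27a1 and 3 that of Fasn. Of 9 fibroblast and fat progenitor genes 6 were tested, 4 of them higher and 1 lower in TNFR KO than in WT hosts. Over all tested genes 12% were higher and 18.9% lower. The median of the 6 was 0.91, and 0 were called for radiation over both hosts by limma. For the difference between radiation effects 3 of the 6 were called below 0 and 0 above, beside 2.05% and 0.159% of all tested genes. They were Dcn (-1.78 ± 0.25), Col3a1 (-1.31 ± 0.089) and Col1a1 (-1.06 ± 0.18), against duplicate arrays. Omissions of 1 array ended the call of Dcn in 4 of 8, of Col1a1 in 6 and of Col3a1 in 0. All 6 lay below 0, with a median of -0.97 (radiation -0.53 in TNFR KO and 0.59 in WT hosts). The fibroblast count of 4 was 1 without WT untreated replicate 1. All 3 tested keratinocyte genes were higher in TNFR KO than in WT hosts, beside 12% of all tested genes. Of the 8 omissions, 7 ended the call of Krt5, 6 that of Lor and 6 that of Sprr1a. Among the 7 melanocyte genes 0 were called for radiation over both hosts by limma.

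Every comparison between hosts also carries a difference between the arrays. The bacterial spike-in probe sets averaged 15.6 on the TNFR KO arrays and 8062 on the WT arrays, and the 3 probe sets of the 18S ribosomal transcript had a mean signal of 944 in TNFR KO irradiated, 529 in TNFR KO untreated, 340 in WT irradiated and 293 in WT untreated tumours. Host and preparation of the arrays cannot be told apart in those comparisons. The 18S signal also differed with treatment within TNFR KO hosts (944 against 529), and less within WT hosts (340 against 293). Radiation differences in TNFR KO hosts, and differences between radiation effects, thus carry it as well. Its part in them was not tested. Duplicates correlated at 0.975 to 0.981 across probe sets.

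The genes whose pattern over the 8 arrays was most like that of Adipoq were Epcam (Pearson's r = 0.78), Cnrip1 (0.74), Lim2 (0.72), Sfrp5 (0.71) and Fbxw16 (0.71), among 2212 tested genes whose pools spanned at least 2-fold. Since Adipoq lay in the empty range throughout, and the arrays of a pool share their RNA, these values describe the arrays and no p is given.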

How the data were processed

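The authors deposited 1 linear intensity per probe set and array, made with MAS5 per the submitters' processing notes, which give no version. Trimmed means came to 500.00 for each of the 8 arrays, so the deposited intensities share a scaling target. From these, log2(signal + 16) was computed. The 45101 probe sets comprise 34945 with 1 gene symbol, 932 with more, 9160 without any and 64 for controls. Symbols came from the array annotation, and 18032 of 18193 genes were found by gene ID in RefSeq, with 0 symbols differing. A gene entered the tests when its average over arrays was at least 6.41, the median for probe sets other than controls.

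Effects over both hosts or both treatments came from an additive limma model of the 4 pool means (R 4.3.3, limma 3.58.1, figures in matplotlib 3.10.9), with 1 residual and 9.52 prior degrees of freedom and calls at a Benjamini-Hochberg adjusted p under 0.05. That residual is the difference between the hosts' radiation effects. Single-pool comparisons used the 8 arrays (with 4 residual degrees of freedom), and a call there needed 2-fold as well. All tests were two-sided, and the number of arrays limits their precision. On simulated data with 11345 genes, the fit for radiation over both hosts found 82 of the 100 genes given a 2-fold change, all 100 given a 4-fold change and 13 unchanged ones. Within hosts the 8-array fits found 42 (TNFR KO) and 41 (WT) of 100 genes given a 2-fold change. The simulated spread between pools was drawn from the limma fit itself for the first fit and was left out for the 8-array fits. These counts thus hold under the model's own assumptions and do not cover spread between animals.

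The 9 members and the 14 gene lists were chosen with earlier results of these data known. Genes named were the members, up to 4 called genes of each list by size of difference, and the 5 genes most correlated with Adipoq. Other genes were named after their values were seen (the dim and untested fat cell and brown fat genes, Gpihbp1, Abhd5, Lipa, Myh7, Myl1, Actn3, Rxra, Cd163 and Eng), as were the values given for genes that were not called. Replicate numbers did not pair the arrays: deviations of same-numbered arrays correlated at -0.0102 to 0.0120. Alternatives covered normalization, pseudocount, filter, probe set, variance model, fold threshold, replicate block and leaving out each array.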

Additional observations from a re-analysis of the deposited data

Results flagged for a closer look

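For 2 genes the radiation difference in TNFR KO hosts differed from that in WT hosts by the interaction term of limma on the 8 arrays, whose error is the spread between duplicates of 1 pool per group. Fabp4 gave -1.32 ± 0.084 on the log2 scale, between -1.37 and -0.88 over the alternatives. Cd36 gave -1.18 ± 0.17, between -1.32 and -0.91. On the brightest probe set of each, the 2 arrays of the irradiated TNFR KO pool read below those of the untreated TNFR KO pool. The 2 arrays of the irradiated WT pool read above those of the untreated WT pool. The macrophage sum was likewise lower after irradiation in TNFR KO hosts and higher in WT hosts, and its part in these results was not tested. On the second bright Fabp4 probe set the radiation difference in TNFR KO hosts was 0.076, with overlapping duplicates. With the mean of the probe sets of a gene, neither gene was called for the difference between radiation effects.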

How the results depend on the processing

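Counts are of called members among those tested, here 1 for radiation and 1 for host in the pool-level fits, 1 in each host for radiation, 0 and 0 between hosts in irradiated and untreated tumours, and 2 for the difference between radiation effects. With a filter at the 75th percentile only Fabp4 was tested, giving 0 for radiation (over both hosts, in TNFR KO and in WT) and host, and 1 for the difference between radiation effects. With probe sets averaged per gene Car3 was too dim, and all 5 of these counts were 0, the difference between radiation effects being -0.88 for Fabp4 (adjusted p = 0.0678). With no filter the counts over both hosts and over both treatments were 0 and 0 and that for the difference between radiation effects 1. Over both treatments, arrays centred on the median or a pseudocount of 64 gave 2, by adding Lpl, and limma-trend 0. Centring and a pseudocount of 64 gave 1 for the difference between radiation effects. With no pseudocount the count was 2 for radiation in TNFR KO hosts and 2 between hosts in irradiated tumours. Quantile normalization gave 2 for radiation in WT hosts. A limit of 1.5-fold or no fold limit gave 2 and 3 for radiation in TNFR KO hosts, 2 and 2 in WT hosts, 4 and 4 between hosts in irradiated and 2 and 2 in untreated tumours. Leaving out 1 array gave 0 to 1 for radiation over both hosts, 1 to 1 for host over both treatments (without TNFR KO untreated replicate 1 the call was Lpl, -0.70 with adjusted p = 0.0391, in place of Car3), 1 to 2 for radiation in either host, 0 to 1 between hosts in irradiated and 0 to 0 in untreated tumours, and 1 to 2 for the difference between radiation effects. Without TNFR KO untreated replicate 1 radiation in TNFR KO hosts had 2 calls, and without WT irradiated replicate 1 radiation in WT hosts had 2. In irradiated tumours 1 was called between hosts without any 1 of the 4 irradiated arrays. With the technical replicate number as a replicate block the counts were 1, 1, 1, 1, 0, 0 and 2 in the order above, and it changed no call. Values near 0 changed sign. Car3's difference between radiation effects was -0.038 with no pseudocount, -0.082 without TNFR KO untreated replicate 1 and -0.082 to 0.41 over all arrays left out in turn. Lpl for radiation over both hosts was -0.051 centred, and -0.012, -0.074 and -0.0095 without TNFR KO irradiated replicate 2, TNFR KO untreated replicate 2 and WT irradiated replicate 1, with a range of -0.074 to 0.26. In TNFR KO hosts it was 0.041 without TNFR KO untreated replicate 1 (range -0.63 to 0.041), and between untreated hosts 0.21 with the mean of its probe sets and 0.18 without TNFR KO untreated replicate 2 (range -0.48 to 0.18). With the mean of probe sets the host differences of Fabp4 and Cd36 were 0.11 and 0.13, and centring gave -0.0038 for Cd36 and radiation in WT hosts. The causes were not tested. Over all genes, radiation over both hosts had 176 higher and 40 lower calls, against 11 and 1 with quantile normalization, 153 and 148 centred, 74 and 10 with no pseudocount, 459 and 321 with limma-trend, 271 and 58 with probe sets averaged, and 0 and 0 of 18193 with no filter. Leaving out 1 array gave 0 to 100 higher and 0 to 17 lower calls, namely 0 and 0 without WT untreated replicate 1 and 3 and 0 without WT irradiated replicate 1. Host over both treatments had 1364 and 2140, against 0 and 0 with no filter. Counts for the gene lists under these alternatives were added after the data were seen. Centring moved the median of all genes to -0.16 for radiation over both hosts and -0.28 in WT hosts. Signals within the range of the bacterial control probe sets limit what can be said of Adipoq, Retn, Pparg and irradiated Car3.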

Other observations

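The patterns of Fabp4 and Car3 were also set against all tested genes, a step added after their values were seen. Among 2212 genes whose pools spanned at least 2-fold, those most like Fabp4 over the 8 arrays were the interferon regulator Irf7 (Pearson's r = 0.98), Ms4a6d (0.98), Ctla2a (0.98), the Fc receptor gene Fcgr3 (0.98) and Tyrobp, an adaptor of receptors on myeloid cells (0.98). Tyrobp averaged 972 in TNFR KO irradiated, 1221 in TNFR KO untreated, 2050 in WT irradiated and 786 in WT untreated tumours. Those most like Car3 were Adamts20 (0.99), Mecom (0.98), Mgat4a (0.97), the mitotic kinesin gene Kif20a (0.97) and the connexin gene Gjb2 (0.97). Kif20a averaged 376 in TNFR KO irradiated, 767 in TNFR KO untreated, 493 in WT irradiated and 897 in WT untreated tumours. No muscle gene of the list was among these 5, but a cut at 5 genes does not tell how closely muscle genes followed Car3. The arrays of a pool share their RNA, so 8 points stand for 4 pools.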
